A study of Homo sapiens with 33 samples.

Results

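The subunits of the mitochondrial respiratory chain and of ATP synthase were followed through 33 RNA sequencing libraries of human acute lymphoblastic leukaemia (ALL) cell lines. Members were chosen by gene name alone: symbols for the subunits of complex I (NDUFA, NDUFB, NDUFC, NDUFS and NDUFV followed by a number), complex II (SDHA to SDHD), complex III (UQCR), complex IV (COX followed by 4 to 8 and a letter) and ATP synthase (ATP5), together with the protein-coding genes of the mitochondrial genome. Of 62446 gene rows, 281 carried a matching symbol, and 181 of these were left out as pseudogenes or hyphenated antisense and read-through entries. The remaining 100 genes were 87 nuclear and 13 mitochondrially encoded. By complex they were 45 genes of complex I, 4 of complex II, 10 of complex III, 20 of complex IV and 21 of ATP synthase. Names do not always follow the complex: NDUFA4 is counted here with complex I by its symbol, although its product is known as a complex IV subunit, and CYC1 and NDUFAB1 fall outside the naming rule.

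Each of 11 groups had 3 libraries, and every treatment lasted 24 h. Nalm6 is a B-cell precursor ALL line, and its treated libraries were from cells given CHIR-99021 (a GSK3 inhibitor that activates Wnt signalling) at 0.5 µM, the glucocorticoid prednisolone at 5 µM or the more potent glucocorticoid dexamethasone at 100 nM. There were 2 untreated parental groups, of which 1 is titled as the control of dexamethasone and is called the dexamethasone set below with its treated group. The titles do not say which untreated group belongs to prednisolone: the other one was used, although the treatment text of the prednisolone libraries is worded as that of the dexamethasone control. Subunit results are therefore also given against the alternative untreated group, but those of other gene lists are not. A Nalm6 line edited by CRISPR/Cas9 at TLE1, which encodes a transcriptional co-repressor, was sampled untreated, with prednisolone at 5 µM and with dexamethasone at 100 nM. The edited dexamethasone libraries have no untreated group named as their own, and the labels do not say whether the edited line is 1 clone. CEM, a T-cell ALL line, was sampled untreated, with CHIR-99021 at 2 µM and with prednisolone at 10 µM. All cells were grown in RPMI-1640 with charcoal-stripped serum, which holds little steroid of its own. The treatment field of the labels assigns prednisolone to the parental line and CHIR-99021 to the edited line, in conflict with the series text, and the titles were followed. The series text describes 3 independent experiments, so p-values measure the spread between those experiments.

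The respiratory chain passes electrons from NADH (complex I) and succinate (complex II) through coenzyme Q, complex III and cytochrome c to oxygen at complex IV, and ATP synthase uses the resulting proton gradient to make ATP. Most subunits are encoded in the nucleus and imported, whereas a few hydrophobic core subunits of every complex except complex II are encoded by mitochondrial DNA, which is transcribed from both strands as long polycistronic precursors. Many nuclear subunit promoters are known to hold sites for NRF1 or for ETS factors such as GABPA.

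The promoters below are shown because their genes carry the results: SDHA, which rose under both glucocorticoids in Nalm6 against the direction of most subunits, and UQCRH, ATP5MC1 and NDUFA12, which fell. The bases lie directly before the annotated start in RefSeq on GRCh38.p14, written 5′ to 3′ on the gene's strand. Capitals mark the core bound by NRF1, with any base allowed directly after its A, in SDHA and NDUFA12. In UQCRH capitals mark CCGGAAGT, the ETS core, which reads ACTTCCGG on the other strand. In ATP5MC1 they mark TGACGTCA, the cyclic AMP response element. The positions are chr5:218140-218319 on the plus strand for SDHA, chr1:46303598-46303697 on the plus strand for UQCRH, chr17:48892687-48892786 on the plus strand for ATP5MC1 and chr12:95003698-95003827 on the minus strand for NDUFA12.
SDHA: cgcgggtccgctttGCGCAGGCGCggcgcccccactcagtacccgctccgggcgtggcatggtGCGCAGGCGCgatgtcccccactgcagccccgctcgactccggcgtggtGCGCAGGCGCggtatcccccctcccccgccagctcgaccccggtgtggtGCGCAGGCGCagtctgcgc
UQCRH: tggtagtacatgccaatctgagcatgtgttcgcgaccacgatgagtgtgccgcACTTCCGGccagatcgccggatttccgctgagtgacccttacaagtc
ATP5MC1: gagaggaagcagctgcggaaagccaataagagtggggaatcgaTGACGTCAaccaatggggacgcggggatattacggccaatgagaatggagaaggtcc
NDUFA12: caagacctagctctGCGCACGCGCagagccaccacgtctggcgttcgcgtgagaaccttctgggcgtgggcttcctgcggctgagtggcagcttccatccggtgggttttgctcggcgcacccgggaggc

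The SDHA stretch holds 4 copies of GCGCAGGCGC, spaced 49 bases apart from start to start. RefSeq windows of 300 bases, from 250 before to 50 after the start, were found for 69 of the 87 nuclear members. On either strand, the NRF1 core was present for 17 of the 69 members (24.6%) and for 6.98% of all 27305 genes with a window (5.78% of windows). CCGGAAGT was present for 12 members (17.4%) and for 4.95% of all genes (4.14% of windows), and 2 members held both. TGACGTCA, searched after the ATP5MC1 window had been read, was present for 5 members (7.25%) and for 2.25% of all genes (1.85% of windows). None of the 3 motifs contains another. A match describes these letters and is not evidence of binding.

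Gene totals were 25292579 to 61930057 counts per library, and levels are given as CPM, a gene's count divided by that total and scaled to the same size for every library. Both lines carried the markers of their label: all 7 B-cell precursor markers were at 1 CPM or more in Nalm6 and all 7 T-cell markers in CEM. Of the B-cell precursor markers, 4 were at 1 CPM or more in CEM too, with a sum of 59.1 to 96.3 CPM against 1838 to 2510 CPM in Nalm6, while EBF1 and PAX5 were below; 1 T-cell marker reached 1 CPM in Nalm6. TLE1 itself was at 30.2, 34.0 and 31.8 CPM in untreated parental cells and at 25.4, 24.0 and 24.0 CPM in the untreated line labelled TLE1 KO (log2 fold change −0.36 ± 0.06 SE, adjusted p = 0.00200, edgeR). This fold change is against the untreated group not titled as the dexamethasone control. Against the dexamethasone control the call was lost (adjusted p = 0.0580, edgeR). TLE1 was also called between the untreated parental groups, a call lost with unstranded counts. The transcript was thus present in the edited line, and gene counts do not show whether protein is made. Reads outside genes were 26.3% to 32.7% of a library in parental Nalm6 untreated and under prednisolone, and 19.2% to 22.0% in the parental dexamethasone set. Single libraries stood apart in their mitochondrially encoded share, as given with the mitochondrial results.

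The nuclear members together made up 0.621% to 0.932% of gene counts, and the mitochondrially encoded members 0.427% to 1.18%. The highest nuclear levels belonged to the ATP synthase subunits ATP5F1B, with a mean of 766 CPM over all libraries, and ATP5F1A, with 683 CPM. MT-CO1, MT-CO2 and MT-CO3, which encode the core of complex IV, held 81.6% to 93.0% of the mitochondrially encoded counts. Per kilobase of transcript, MT-CO3 was highest at a mean of 3947 CPM, followed by MT-CO1 at 1999 CPM and MT-CO2 at 1501 CPM, and MT-ATP8 was lowest at 42.0 CPM. Of the 87 nuclear members, 81 passed the filter on low counts and were tested in every comparison. The other 6 were the tissue-restricted isoforms COX4I2, COX6A2, COX6B2, COX7A1, COX7B2 and COX8C, with at most 3 counts in any library. All 13 mitochondrially encoded members were tested.

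**Figure D1:**
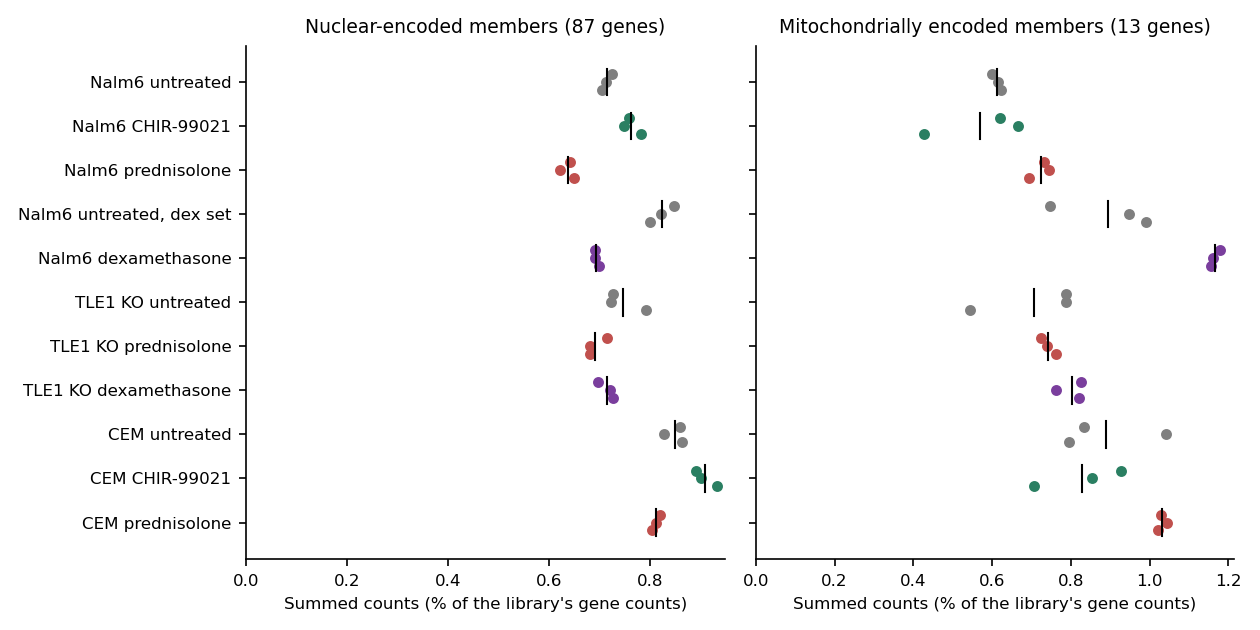
Summed level of the 87 nuclear members and of the 13 mitochondrially encoded members, as a percentage of gene counts, by group; each point is 1 library and the bar is the mean of 3. The nuclear share was lower under prednisolone (mean 0.637%) than in the untreated Nalm6 group it was compared with (0.714%), while the mitochondrially encoded share was higher (0.724% against 0.614%).

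Under glucocorticoid, the nuclear subunits of Nalm6 were mostly lower and the mitochondrially encoded subunits higher, the latter for prednisolone against 1 of the 2 untreated groups only. Prednisolone lowered 58 of the 81 tested nuclear members and raised 5, where 54.8% of all genes tested were called, 26.1% lower and 28.7% higher (edgeR, adjusted p under 0.05). Dexamethasone lowered 61 and raised 2, where 60.5% of all genes were called, 30.2% lower and 30.2% higher. The median nuclear log2 fold change was −0.18 under prednisolone and −0.29 under dexamethasone, and the median of all genes was 0.03 and 0.02. In bulk RNA, fewer cells of a kind and less RNA per cell cannot be told apart. Of the members lowered, 56 were shared, which is 96.6% of the prednisolone list and 91.8% of the dexamethasone list.

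All complexes contributed. Prednisolone lowered 25 of 38 nuclear members of complex I, 2 of 4 of complex II, 7 of 9 of complex III, 8 of 11 tested of complex IV and 16 of 19 of ATP synthase. Dexamethasone lowered 27, 2, 8, 9 and 15 of the same. Among the members raised by prednisolone were SDHA, UQCRB, ATP5F1E and ATP5MGL, the last of which averaged 0.455 CPM over all libraries. Dexamethasone raised SDHA and SDHC.

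ATP5MC1, which encodes 1 of the precursors of the c-ring subunit of ATP synthase, fell the most among members above 10 CPM. It was at 111, 98.9 and 100.2 CPM untreated and at 70.4, 66.8 and 68.2 CPM under prednisolone. The dexamethasone set gave 101, 103 and 98.0 CPM untreated and 60.1, 62.2 and 58.9 CPM treated. Treated libraries lay below every untreated library in both sets, with log2 fold changes of −0.62 ± 0.05 (adjusted p = 6.28e-09) and −0.77 ± 0.04 (9.58e-10). The other genes for the same mature protein moved less. ATP5MC3 fell by 0.32 ± 0.04 under prednisolone and by 0.45 ± 0.04 under dexamethasone on the log2 scale. ATP5MC2 changed by −0.18 ± 0.04 and −0.14 ± 0.04.

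UQCRH, the hinge subunit of complex III, was at 158, 161 and 156 CPM untreated and at 116, 110.4 and 114 CPM under prednisolone (−0.51 ± 0.04, adjusted p = 3.23e-09). In the dexamethasone set it was at 193, 176 and 169 CPM untreated and at 106, 107 and 117 CPM treated (−0.74 ± 0.06, adjusted p = 5.93e-08). The groups did not overlap in either set. Its near-identical retrocopy UQCRHL, at 5.55 to 10.3 CPM in these 12 libraries, changed by −0.43 ± 0.08 and −0.78 ± 0.08, and reads of the pair may be split between them.

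NDUFS6, a complex I subunit of the NADH-oxidizing arm, was at 56.5, 59.4 and 60.3 CPM untreated and at 43.0, 44.6 and 44.1 CPM under prednisolone (−0.45 ± 0.04, adjusted p = 8.21e-08). Under dexamethasone it went from 57.7, 61.7 and 64.5 CPM to 42.8, 42.9 and 44.6 CPM, again without overlap. ATP5MK, a small membrane subunit of ATP synthase, was at 91.7, 78.0 and 74.6 CPM in untreated cells of the dexamethasone set and at 54.0, 53.3 and 60.5 CPM under the drug (−0.58 ± 0.08, adjusted p = 1.13e-05). NDUFA4L2, a paralogue of NDUFA4, was low at no more than 5.24 CPM and fell by 1.08 ± 0.11 under prednisolone and by 1.24 ± 0.16 under dexamethasone on the log2 scale.

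**Figure D2:**
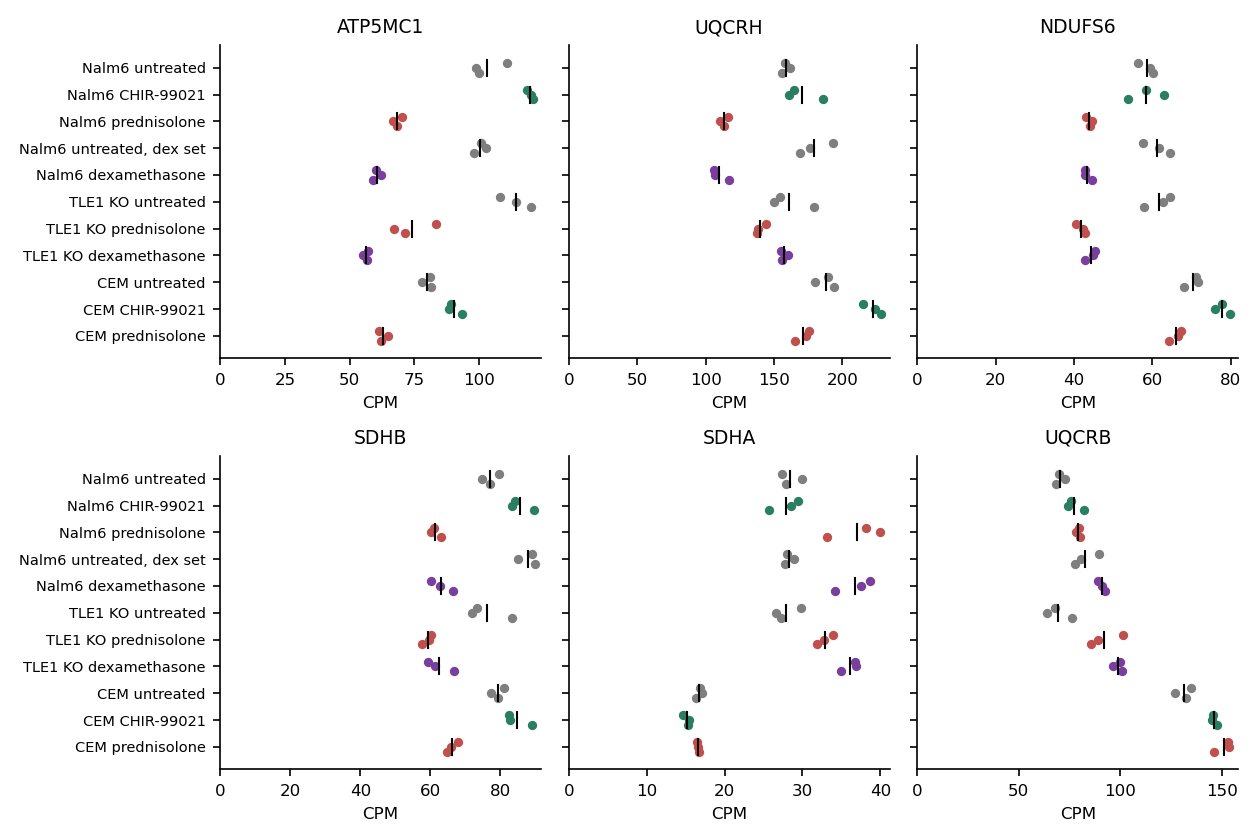
Levels in CPM of 6 nuclear members in the 33 libraries, by group; each point is 1 library and the bar is the mean of 3. ATP5MC1 was lower in the treated than in the untreated libraries of each line given a glucocorticoid, and SDHA was higher in treated Nalm6 libraries but not in CEM.

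Complex II, the only complex with no mitochondrially encoded subunit, divided. SDHA, the flavoprotein that oxidizes succinate, was at 27.4, 30.0 and 27.9 CPM untreated and at 38.2, 39.9 and 33.1 CPM under prednisolone (0.35 ± 0.06, adjusted p = 5.33e-05). Dexamethasone took it from 28, 28.9 and 27.8 CPM to 38.6, 37.4 and 34.1 CPM (0.34 ± 0.05, adjusted p = 4.76e-05). Every treated library was above every untreated library. SDHA has pseudogene copies, and only uniquely mapped reads are counted in files of this layout, so its level is uncertain.

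SDHB, the iron-sulfur partner of SDHA, went the other way. It was at 79.6, 74.7 and 76.9 CPM untreated and at 61.0, 60.1 and 63.0 CPM under prednisolone (−0.36 ± 0.04, adjusted p = 1.89e-06). In the dexamethasone set it was at 89.0, 85.0 and 89.97 CPM untreated and at 60.2, 62.8 and 66.4 CPM treated (−0.52 ± 0.05, adjusted p = 3.49e-07). The membrane anchor SDHD fell by 0.22 ± 0.06 and 0.26 ± 0.08 on the log2 scale, while the anchor SDHC was 0.06 ± 0.05 under prednisolone (adjusted p = 0.284) and rose by 0.29 ± 0.08 under dexamethasone. The call for SDHD was lost without replicate 2 of the prednisolone libraries, and both calls under dexamethasone were lost against the other untreated set described next.

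The untreated Nalm6 groups themselves differed, which bears on every change of this size. Between the untreated dexamethasone set and the other untreated set, 60 of 81 nuclear members were higher and 1, SDHC, was lower, where 50.2% of all genes were called, 25.8% higher and 24.4% lower, and the nuclear median was 0.25. These sets also differed in reads outside genes, at 19.2% to 19.7% and 26.4% to 28.3%. Set and treatment cannot be told apart for comparisons that cross the sets, so each glucocorticoid group was also tested against the other untreated set. Prednisolone then lowered 71 members, including all 58 found against the first untreated group. Most members were higher in that other set, so this comparison leans toward lower values and is no independent check. Dexamethasone lowered 26 and raised 24, and 25 of its 61 remained lower against both sets. The same 25 were lower, and SDHA alone was higher, for both drugs against both untreated sets. All 25 were among the 58, so the prednisolone comparisons took none of them away. Here and below, the share of all genes called is not given for fits against the alternative untreated group. Nor is it given for the list of 25, so these counts stand without a background. The 25 were 13 complex I members, among them NDUFA12, NDUFB2, NDUFS1, NDUFS3, NDUFS4 and NDUFS6, 3 of complex III (UQCRH, UQCRHL and UQCRQ), 3 of complex IV (COX5A, COX6A1 and COX6C), 5 of ATP synthase (ATP5MC1, ATP5MC3, ATP5MK, ATP5PD and ATP5PF) and SDHB; those outside the naming rule for single genes were listed after their values were seen.

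Among tested members with a promoter window, the lowered share can be read by motif. Under dexamethasone 14 of 16 members with the NRF1 core, 11 of 12 with CCGGAAGT and 29 of 39 with neither were lower. Under prednisolone in Nalm6 the counts were 14 of 16, 10 of 12 and 26 of 39. These are descriptions, and no difference between the motif classes was tested. SDHA, whose 4 copies of the NRF1 core are printed above, was the member with that core that rose under each drug.

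The isoform pairs of complex IV were each represented by their widely expressed member. COX4I1 was at 194 to 198 CPM in untreated Nalm6 and 181 to 195 CPM under prednisolone (−0.09 ± 0.04, adjusted p = 0.0623). COX6A1 fell by 0.29 ± 0.05 under prednisolone and by 0.41 ± 0.05 under dexamethasone on the log2 scale, and COX7B by 0.24 ± 0.05 and 0.50 ± 0.05. COX7A2L, known as a factor of supercomplex assembly, was −0.01 ± 0.04 and 0.01 ± 0.05, past the threshold under neither drug. ATP5IF1, the inhibitor of ATP synthase hydrolysis, changed by −0.12 ± 0.04 and −0.21 ± 0.04, the former lost without replicate 2 of the treated cells. Under dexamethasone against the other untreated set, COX7B was −0.04 and its call was lost, and ATP5IF1 and ATP5MC2 changed direction.

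In CEM, 10 µM prednisolone lowered 35 of the 81 nuclear members and raised 5, where 45.1% of all genes were called, 22.8% lower and 22.3% higher. The nuclear median was −0.07 against 0.02 for all genes. ATP5MC1 was again the member above 10 CPM with the largest fall, from 81, 78.0 and 81.4 CPM to 61.3, 64.9 and 62.2 CPM (−0.38 ± 0.03, adjusted p = 6.10e-08). UQCRC2, a core subunit of complex III, went from 242, 225 and 235 CPM to 192, 186 and 188 CPM (−0.34 ± 0.03, adjusted p = 1.18e-07), and the complex I subunit NDUFS4 fell by 0.29 ± 0.04 on the log2 scale. Groups did not overlap for these 3 genes. SDHB fell as well, from 81.1, 77.2 and 79.3 CPM to 67.9, 65.8 and 64.6 CPM (−0.29 ± 0.03).

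SDHA did not follow its Nalm6 course in CEM. It was at 16.9, 17.0 and 16.3 CPM untreated and at 16.4, 16.6 and 16.8 CPM under prednisolone (−0.05 ± 0.05, adjusted p = 0.517). UQCRB, the ubiquinone-binding protein of complex III, was raised by prednisolone in both lines: from 70.0, 72.6 and 68.4 to 79.6, 78.3 and 80.2 CPM in Nalm6 (0.15 ± 0.04) and from 135, 127 and 132 to 153, 154 and 146 CPM in CEM (0.17 ± 0.03). Against the other untreated Nalm6 set, however, UQCRB was −0.17 in Nalm6, and its call there was also lost without replicate 3 of the treated cells.

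The difference of the 2 prednisolone responses was tested directly, with the doses of 10 µM in CEM and 5 µM in Nalm6 unequal. For 25 nuclear members the CEM response was the less negative or more positive, and for 3 the reverse, where 26.9% of all genes were called, 14.7% and 12.2% in these directions. UQCRH differed by 0.36 ± 0.06 (adjusted p = 1.60e-05), NDUFB10 by 0.36 ± 0.06 and NDUFA12 by 0.35 ± 0.06. NDUFA12 was at 61.1, 59.4 and 56.3 CPM in untreated Nalm6 and 50.7, 47.8 and 45.3 CPM under prednisolone, but at 57.8, 54.6 and 56.0 CPM and then 57.9, 57.7 and 57.5 CPM in CEM. SDHA differed by −0.38 ± 0.08 (adjusted p = 0.000600). Without replicate 3 of prednisolone-treated Nalm6, the counts were 40 and 4. With the alternative untreated Nalm6 group they were 64 and 2, including the same 25, and SDHA alone of the 3.

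In the line labelled TLE1 KO, prednisolone lowered 34 nuclear members and raised 3, where 41.7% of all genes were called, 21.9% lower and 19.8% higher. By complex, 19 of 38 members of complex I, 1 of 4 of complex II, 3 of 9 of complex III, 5 of 11 of complex IV and 6 of 19 of ATP synthase were lower. ATP5MC1 was at 108, 114 and 120.3 CPM untreated and at 83.4, 67.3 and 71.3 CPM treated (−0.67 ± 0.09, adjusted p = 0.000189). NDUFS6 went from 64.5, 62.8 and 58.0 CPM to 40.6, 42.3 and 42.8 CPM (−0.60 ± 0.06). COX5A, a nuclear subunit of complex IV, went from 108, 104 and 106 CPM to 73.7, 79.5 and 80.1 CPM (−0.49 ± 0.06). None of these groups overlapped. SDHA was at 29.8, 26.5 and 27.2 CPM untreated and at 33.9, 32.8 and 31.9 CPM treated (0.20 ± 0.07, adjusted p = 0.0414), a call lost with DESeq2 and without any 1 of 5 of the 6 libraries.

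The test of the difference between the edited and parental responses to prednisolone called none of the 81 nuclear and none of the 13 mitochondrially encoded members, where 3.48% of all genes were called, 1.1% higher and 2.38% lower (edgeR). At an unadjusted p under 0.05, 7 nuclear members were called higher and 0 lower, and 1 mitochondrially encoded member higher and 7 lower. DESeq2 called 0 nuclear members and 1 mitochondrially encoded member. Without replicate 3 of the untreated edited line, which had the lowest mitochondrially encoded share of its group, edgeR called 5 nuclear members higher and 11 mitochondrially encoded members lower, so the result of this test turned on that library. With the alternative untreated parental group, 46 nuclear members were called higher and 0 lower, and 2 mitochondrially encoded members in each direction, so the result also turned on the choice of that group. For ATP5MC1 the responses differed by −0.02 ± 0.11.

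Across the 4 glucocorticoid comparisons above, 20 nuclear members were lowered in every one: ATP5F1B, ATP5MC1 and ATP5MC3 of ATP synthase; COX5B, COX6A1, COX7B and COX8A of complex IV; SDHB; UQCRC1 and UQCRH of complex III; and 10 members of complex I, among them NDUFS3, NDUFS6, NDUFS7 and NDUFV1. Each comparison used a different untreated group, though the 2 untreated Nalm6 groups come from the same line. Against both untreated Nalm6 groups 11 of the 20 were lower in all of these comparisons, and ATP5F1B, COX5B, COX7B, COX8A, UQCRC1, NDUFB7, NDUFB11, NDUFS7 and NDUFV1 were not. The call for COX8A in CEM was lost without replicate 1 or 3 of the untreated or replicate 2 or 3 of the treated cells, that for COX7B without replicate 3 of the untreated cells, and that for UQCRH in the edited line without replicate 3 of the untreated or replicate 2 or 3 of the treated cells. This list was read off after the values were seen. Of all genes, prednisolone lowered 26.1% and dexamethasone 30.2% in Nalm6, and prednisolone lowered 22.8% in CEM and 21.9% in the edited line. The share of all genes lowered in all 4 is not given. Whether the list is particular to these subunits was not tested.

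Untreated, the edited line had 15 nuclear members higher and 2 lower than the parental line, where 27.1% of all genes were called, 15.3% higher and 11.8% lower. SDHC was at 34.8, 41.3 and 29.9 CPM against 26.1, 25.9 and 25.4 CPM (0.48 ± 0.10, adjusted p = 0.00684). COX5B was at 99.3, 98.8 and 107 CPM against 80.7, 81 and 83.0 CPM (0.34 ± 0.05, adjusted p = 0.00103). ATP5F1D, a central-stalk subunit of ATP synthase, was at 58.4, 51.8 and 42.3 CPM against 34.7, 39.4 and 37.0 CPM (0.48 ± 0.10). NDUFS3 was lower at 68.6, 68.6 and 72.9 CPM against 80.0, 79.3 and 77.8 CPM (−0.15 ± 0.05). The groups did not overlap for these 4 genes. The call for NDUFS3 was lost without any 1 of 5 of the 6 libraries and under 4 other settings. Leaving out any 1 of the parental libraries left 9 members higher and 0 lower, and leaving out replicate 3 of the edited line gave 17 and 7. Against the alternative untreated parental group 1 member was higher, SDHC, and 25 were lower, including NDUFS3; COX5B was 0.043 and ATP5F1D −0.0017, and neither was called.

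Under dexamethasone the edited line was also compared with the parental line. Of the 81 nuclear members 40 were called, 29 higher and 11 lower, a share below that of all genes. Of all genes 56.6% were called, 28.5% higher and 28.1% lower. UQCRH was at 155, 161 and 156 CPM in the edited line and at 106, 107 and 117 CPM in the parental line (0.52 ± 0.04, adjusted p = 1.65e-10), without overlap. NDUFB6 was higher by 0.41 ± 0.05 and ATP5PO by 0.38 ± 0.05, whereas NDUFB2 was lower by −0.22 ± 0.05 and COX6B1 by −0.19 ± 0.03. ATP5MC1, at 57.1, 55.0 and 56.6 CPM against 60.1, 62.2 and 58.9 CPM, differed by −0.09 ± 0.04, a call lost with DESeq2 and without replicate 2 of the parental or any 1 of the edited libraries. Because the edited dexamethasone libraries have no untreated group of their own, drug response and line cannot be told apart here.

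**Figure D3:**
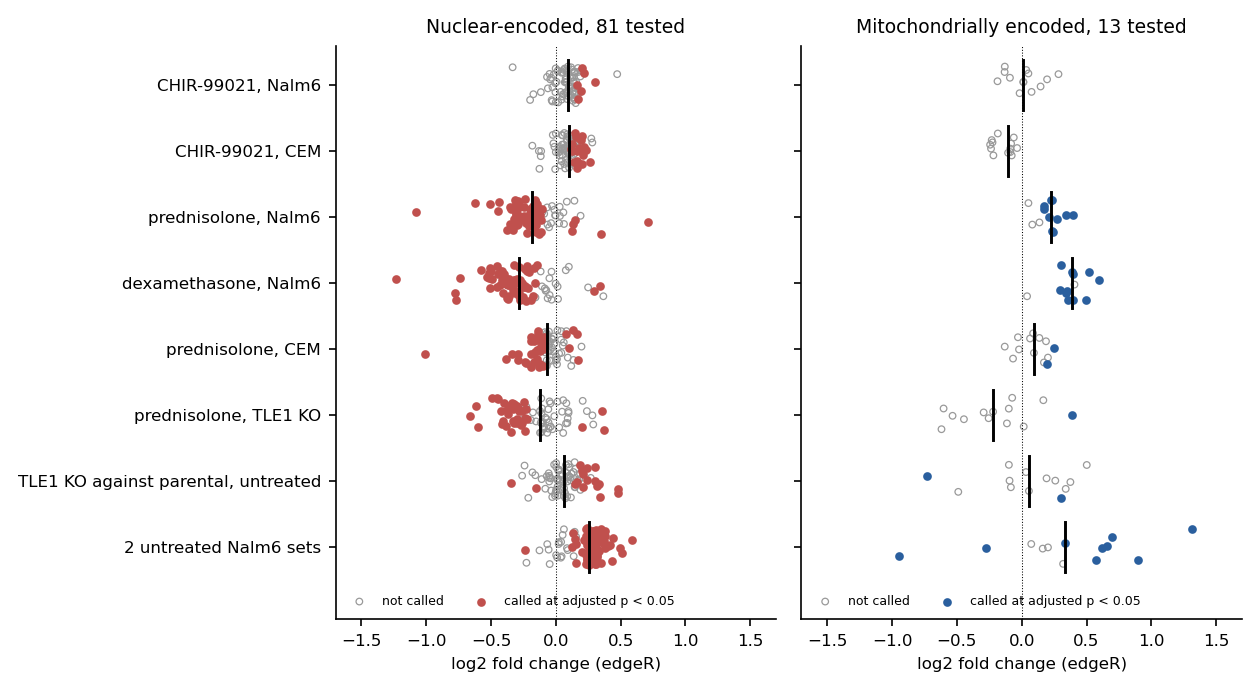
Log2 fold change (edgeR) of each tested nuclear member (81, left) and mitochondrially encoded member (13, right) in 8 comparisons; filled points were called at an adjusted p under 0.05 and the black bar is the median. Under dexamethasone in Nalm6 the nuclear median was −0.29 and the mitochondrially encoded median 0.39.

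Against the untreated groups used first, the mitochondrially encoded members moved opposite to the nuclear members in treated Nalm6. Prednisolone raised 10 of 13 and lowered 0, with a median log2 fold change of 0.23, where 28.7% of all genes were higher and 26.1% lower. Dexamethasone raised 11 of 13 and lowered 0, with a median of 0.39, where 30.2% of all genes were higher and 30.2% lower. For dexamethasone DESeq2 called 7, without MT-ND1, MT-ND2, MT-ATP6 and MT-ND4L. MT-CO1 was at 2387, 2471 and 2503 CPM untreated and at 2851, 2894 and 2713 CPM under prednisolone (0.17 ± 0.04, adjusted p = 0.00133). In the dexamethasone set it was at 2904, 3720.0 and 3904 CPM untreated and at 4612, 4629.7 and 4564 CPM treated (0.36 ± 0.07, adjusted p = 0.000863). Neither pair of groups overlapped, although replicate 1 of the untreated dexamethasone set was lowest of its group.

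Transcripts of complex I and complex III behaved alike in direction. MT-ND5 was at 137, 144 and 141 CPM untreated and at 189.6, 208 and 169.5 CPM under prednisolone (0.40 ± 0.05, adjusted p = 3.04e-06). MT-ND4 rose by 0.34 ± 0.05 under prednisolone and by 0.60 ± 0.11 under dexamethasone on the log2 scale. MT-CYB, the cytochrome b of complex III, was at 184, 281 and 286 CPM untreated in the dexamethasone set and at 356, 372 and 369.8 CPM treated (0.52 ± 0.11, adjusted p = 0.00105). MT-ATP6, the proton channel subunit of ATP synthase, was at 101, 163 and 182 CPM and then at 209, 222 and 214 CPM (0.50 ± 0.14, adjusted p = 0.00629).

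MT-ND2, MT-ND3, MT-ND4L, MT-CO2 and MT-CO3 were also called higher under both drugs, by 0.17 to 0.39. The MT-ND2 groups overlapped under prednisolone, where the call was lost without untreated replicate 1 or treated replicate 1 or 2, and under dexamethasone without treated replicate 2 or 3. MT-ND1 rose under dexamethasone (0.39 ± 0.11) and was 0.05 ± 0.04 under prednisolone. The exceptions under both drugs were MT-ATP8, the least abundant, and MT-ND6, the only member transcribed from the light strand. MT-ND6 was at 54.7, 51.4 and 48.9 CPM untreated and at 48.5, 68.3 and 56.2 CPM under prednisolone, which overlap. In the dexamethasone set it was at 28.4, 24.5 and 24.1 CPM and then at 29.4, 26.2 and 25.8 CPM (0.04 ± 0.07, adjusted p = 0.649).

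The prednisolone rises were mostly called against 1 untreated set only, and the dexamethasone rises against both. Between the untreated sets, 7 members were higher and 2 lower in the dexamethasone set, where 25.8% of all genes were higher and 24.4% lower. MT-CYB was higher by 1.32 ± 0.12, MT-ATP6 by 0.90 ± 0.15 and MT-CO3 by 0.70 ± 0.06, with MT-ND6 at −0.94 ± 0.07 and MT-ND5 at −0.28 ± 0.07. Against the other untreated set, prednisolone raised 2 members and lowered 6, and MT-ND5 alone was higher against both. Dexamethasone raised 12 and lowered 1, and its 11 raised members were higher against both. For members already higher in the dexamethasone control, that comparison adds the set difference to the drug difference, so it is no independent check. Reads on the strand opposite to MT-ND5 averaged 46.7% in the first untreated group, 38.8% in the dexamethasone control and 40.5% under prednisolone. For MT-CYB the untreated shares were 50.9% and 19.4%, and its prednisolone call was lost with unstranded counts. The part of strand was not tested.

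**Figure D4:**
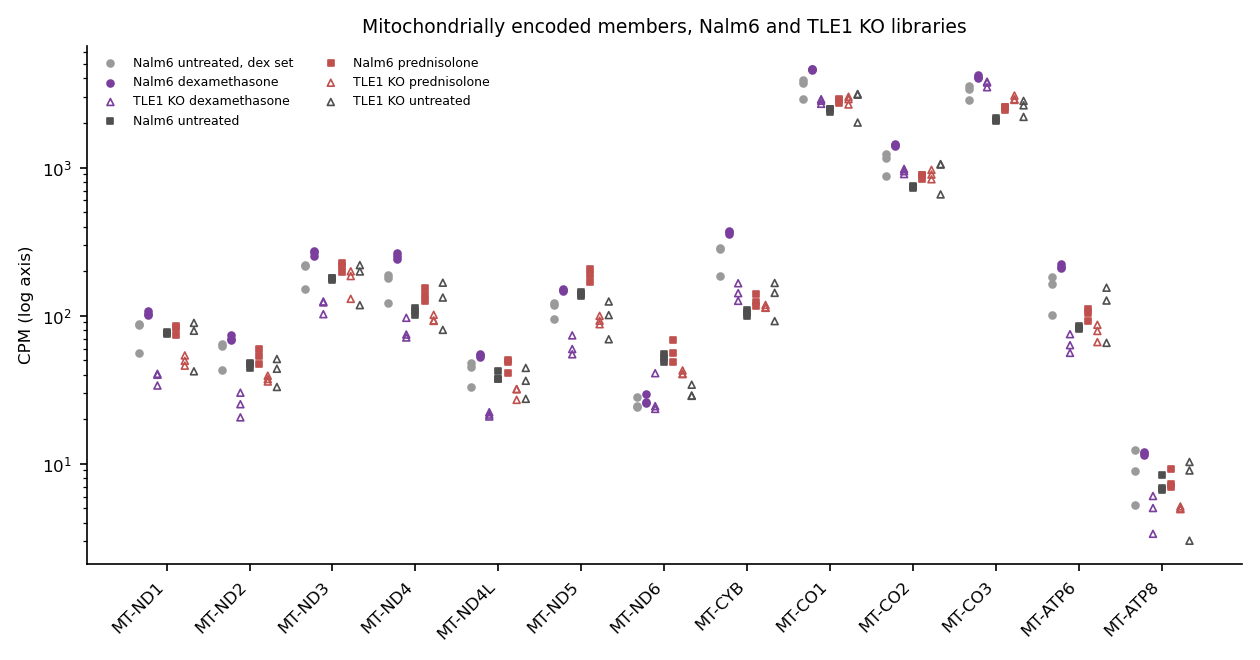
Levels of the mitochondrially encoded members in CPM on a log axis, in parental Nalm6 and the line labelled TLE1 KO. Untreated, prednisolone and dexamethasone groups are shown, and each point is 1 library. MT-CYB was highest in dexamethasone-treated parental Nalm6, at 356 to 372 CPM, and at 126 to 166 CPM in the dexamethasone-treated line labelled TLE1 KO.

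In the line labelled TLE1 KO, 12 of 13 members were lower under dexamethasone than in parental cells under the same drug and 0 were higher, where 28.1% of all genes were called lower. The median difference was −1.27. As for the nuclear members, drug response and line cannot be told apart here. The edited dexamethasone libraries have no untreated group of their own. MT-ATP6 was at 75.0, 56.1 and 63.2 CPM against 209, 222 and 214 CPM (−1.72 ± 0.06, adjusted p = 8.23e-16). MT-ND4 was at 96.7, 71.2 and 74.6 CPM against 243, 263 and 251 CPM (−1.63 ± 0.07, adjusted p = 1.07e-14). MT-ND1 was at 40.5, 33.7 and 39.9 CPM against 101, 107 and 102 CPM (−1.43 ± 0.05). For all 3 the highest edited library lay below the lowest parental one.

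The difference was unequal along the genome. MT-ND2 (−1.46 ± 0.07), MT-CYB (−1.33 ± 0.06), MT-ND4L (−1.31 ± 0.04), MT-ATP8 (−1.27 ± 0.12), MT-ND5 (−1.24 ± 0.06) and MT-ND3 (−1.16 ± 0.05) were lower by over 1 on the log2 scale. The abundant cytochrome oxidase transcripts differed less: MT-CO1 by −0.70 ± 0.03, MT-CO2 by −0.58 ± 0.03 and MT-CO3 by −0.15 ± 0.04. MT-CO3 was at 3758, 3493 and 3805 CPM against 4229, 4036 and 4085 CPM. MT-ND6, at 40.9, 23.4 and 24.5 CPM against 29.4, 26.2 and 25.8 CPM, was the member not called (0.13 ± 0.12, adjusted p = 0.367), and without replicate 1 of the edited line it was −0.16.

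The share of mitochondrially encoded counts on the opposite strand was 2.67% in the edited and 2.53% in the parental dexamethasone group, and the mitochondrial ribosomal RNA genes were at 564 to 647 CPM and 701 to 711 CPM. By gene the mean share was 23.8% against 14.3% for MT-CYB, 52.4% against 32.4% for MT-ND5 and 16.8% against 9.59% for MT-ND4. It was lower in the edited group for MT-CO1, MT-CO2, MT-CO3 and MT-ND6, and higher for every other member. Reads mapping to several places were 6.97% to 7.55% in the edited dexamethasone libraries and 5.49% to 5.72% in the parental ones. Their part in the difference was not tested.

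Untreated, 2 of 13 mitochondrially encoded members (7.69% higher and 7.69% lower) were called between the edited and parental lines, below the 27.1% of all genes called: MT-CO3 was higher (0.30 ± 0.08, adjusted p = 0.0193) and MT-ND6 lower (−0.73 ± 0.08, adjusted p = 0.000145). MT-ND6 was at 28.8, 34.2 and 28.7 CPM in the edited line and at 54.7, 51.4 and 48.9 CPM in the parental line. Against the alternative untreated parental group, where MT-ND6 was at 28.4, 24.5 and 24.1 CPM, both turned: MT-ND6 was 0.22 (adjusted p = 0.0918) and MT-CO3 was −0.39 (adjusted p = 0.0141). Replicate 3 of the untreated edited line stood apart, with a mitochondrially encoded share of 0.543% against 0.789% in each of the other two and mitochondrial ribosomal RNA at 286 CPM against 1863 and 3091 CPM. Without it, 9 members were higher and 2 lower than in the parental line, and the call for MT-CO3 was lost without any 1 of the parental libraries or replicate 2 of the edited line.

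Prednisolone in the edited line raised MT-ND6 alone (0.39 ± 0.08, adjusted p = 0.00306), from 28.8, 34.2 and 28.7 CPM to 42.7, 40.5 and 40.3 CPM, and lowered 0. The share called was below that of all genes, of which 41.7% were called, 19.8% higher and 21.9% lower. MT-ATP6 was at 127, 154 and 65.5 CPM untreated and at 66.3, 78.8 and 86.8 CPM treated (−0.62 ± 0.24, adjusted p = 0.0568), the groups overlapping through replicate 3. Without that replicate, 10 members were lower and 1 higher. With all libraries 10 of the 13 had negative log2 fold changes and the median was −0.22, so the number of calls turned on this library and the sign of the median did not.

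In CEM, prednisolone raised MT-CO3 and MT-CO2 and lowered 0 of the 13, where 45.1% of all genes were called, 22.3% higher. MT-CO3 was at 3324, 3791 and 3183 CPM untreated and at 4203, 4271 and 4041 CPM treated (0.25 ± 0.05, adjusted p = 0.000206). MT-CO2 rose by 0.19 ± 0.07, a call lost when any library but replicate 2 of untreated CEM was left out, with treated values of 1386 to 1409 CPM inside the untreated range of 1067 to 1414 CPM. Replicate 2 of untreated CEM had a mitochondrially encoded share of 1.04%, against 0.835% and 0.795% in the others, and without it 12 members were higher and 1 lower. The test of the difference from the Nalm6 response called 0 members, and 0 at an unadjusted p under 0.05; DESeq2 called 0, and edgeR called 5 higher and 2 lower with the alternative untreated Nalm6 group, 4 higher without that replicate and 1 lower without replicate 1 or 3 of untreated CEM or replicate 1 of treated Nalm6.

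CHIR-99021 moved the nuclear members little and upward. In CEM at 2 µM, 20 nuclear members rose and 0 fell, where 10.8% of all genes were called, 5.41% higher and 5.43% lower. At an unadjusted p under 0.05, 42 were higher and 1 lower. The 20 were 7 members each of complex I and ATP synthase and 3 each of complexes III and IV. UQCRH was at 189.7, 179.7 and 194 CPM untreated and at 215, 224 and 228 CPM treated (0.26 ± 0.04, adjusted p = 0.00136). NDUFA12 was at 57.8, 54.6 and 56.0 CPM and then at 62.5, 65.9 and 67.0 CPM (0.23 ± 0.04, adjusted p = 0.00334). UQCRC2 was at 242, 225 and 235 CPM and then at 264, 269 and 271 CPM (0.21 ± 0.04). Treated and untreated libraries did not overlap for these 3. Leaving out 1 library at a time gave 12 to 18 called members, with 12 called without replicate 2 of treated or replicate 3 of untreated CEM and 13 without replicate 1 or 2 of untreated CEM.

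In Nalm6 at 0.5 µM, 6 nuclear members rose and 0 fell, where 7.88% of all genes were called, 3.16% higher and 4.72% lower. NDUFS5, a complex I subunit, was at 33.2, 32.8 and 31.5 CPM untreated and at 39.9, 39.5 and 41.0 CPM treated (0.31 ± 0.04, adjusted p = 0.00281). ATP5MC1 was at 111, 98.9 and 100.2 CPM and then at 119, 120.2 and 121 CPM (0.22 ± 0.05, adjusted p = 0.0254), and ATP5MK rose by 0.20 ± 0.05; both calls were lost without replicate 2 or 3 of untreated or replicate 1 of treated Nalm6, ATP5MC1 also without treated replicate 2 and ATP5MK without untreated replicate 1. The other 3 were ATP5PB, UQCRQ and NDUFB9, named after their values were seen. Of the 6, 4 were also raised in CEM, which is 20% of the CEM list. The doses differ, so sizes are not compared between the lines. Replicate 3 of treated Nalm6 stood apart with a mitochondrially encoded share of 0.427%, against 0.620% and 0.666%, and without it 15 nuclear members were called. Without replicate 1 of treated or replicate 1 of untreated Nalm6, 2 were called, and without replicate 2 or 3 of untreated Nalm6, 1.

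CHIR-99021 called 0 of the 13 mitochondrially encoded members in either line (edgeR). At an unadjusted p under 0.05, 2 were higher in Nalm6 and 0 were called in CEM, and DESeq2 called 0 in both; in Nalm6, 3 were higher without treated replicate 1 and 1 without treated replicate 3. MT-CO1 was at 2507, 2606 and 1600.1 CPM in treated Nalm6 against 2387, 2471 and 2503 CPM untreated. The low value belonged to the library that stood apart.

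The direction of the nuclear members between untreated CEM and untreated Nalm6 depended on the Nalm6 group. Against the untreated dexamethasone set, 19 nuclear members were higher in CEM and 27 lower, below the 77.5% of all genes called, 40.2% higher and 37.3% lower. NDUFS5 was at 115, 105 and 114 CPM in CEM and at 46.0, 44.4 and 42.8 CPM in Nalm6 (1.29 ± 0.05, adjusted p = 4.92e-11). NDUFB8, whose locus overlaps other annotated transcripts so that its level is uncertain, was higher by 1.18 ± 0.08, and ATP5MJ by 0.78 ± 0.05. COX8A was at 105 to 113 CPM in CEM and 61.9 to 67.2 CPM in Nalm6 (0.69 ± 0.05).

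SDHA was lower in CEM, at 16.9, 17.0 and 16.3 CPM against 28, 28.9 and 27.8 CPM (−0.79 ± 0.05, adjusted p = 1.68e-08). NDUFA10 was lower by −0.53 ± 0.04 and ATP5MC2 by −0.41 ± 0.04, and ATP5MC1 by −0.37 ± 0.04. Against the other untreated Nalm6 set these were lower too, with SDHA at −0.71, NDUFA10 at −0.28, ATP5MC2 at −0.10 and ATP5MC1 at −0.32, but 61 members were higher and 8 lower; 18 of the 19 higher and 7 of the 27 lower were shared. Of the mitochondrially encoded members, MT-ND1 was higher in CEM and MT-ND5 and MT-ND6 lower against both sets, MT-ND6 at 14.1, 12.4 and 15.5 CPM against 28.4, 24.5 and 24.1 CPM in the dexamethasone set.

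The proteins that build and supply these complexes were read from lists of other mitochondrial genes. These counts, and the single genes in the next paragraph, are against the untreated groups used first. Values against the alternative untreated Nalm6 group are not given for them. For the nuclear subunits, dexamethasone lowered 61 against the first group and 26 against the alternative. Of 48 assembly factors tested, prednisolone lowered 27 and raised 4 in Nalm6 and lowered 25 and raised 2 in CEM, and dexamethasone lowered 30 and raised 5. Over all genes the shares lowered in these comparisons were 26.1%, 22.8% and 30.2%. Of 77 mitochondrial ribosomal proteins, which make the 13 mitochondrially encoded subunits, 59 were lower and 1 higher under prednisolone in Nalm6, 70 and 0 under dexamethasone, and 41 and 2 in CEM. CHIR-99021 raised 13 of the 77 in Nalm6 and 20 in CEM and lowered 0 in either, where 3.16% and 5.41% of all genes were called higher. Of 22 genes of the tricarboxylic acid cycle and pyruvate entry, 17 were lower and 2 higher under each glucocorticoid in Nalm6, against the same 26.1% and 30.2% of all genes lower.

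Cytochrome c, encoded by CYCS, carries electrons from complex III to complex IV. It was at 275, 251 and 252 CPM untreated and at 192, 175 and 192 CPM under prednisolone in Nalm6 (−0.51 ± 0.05, adjusted p = 1.14e-07). It was at 237, 228 and 242 CPM and then at 169.9, 168 and 168 CPM in CEM (−0.51 ± 0.03, adjusted p = 3.37e-10), without overlap in either line. TFAM and LRPPRC act on mitochondrial DNA transcription and on mitochondrial messenger RNA stability. In Nalm6 TFAM fell by 0.37 ± 0.04 and LRPPRC by 0.42 ± 0.04 on the log2 scale under prednisolone, and by 0.53 ± 0.06 and 0.58 ± 0.04 under dexamethasone, in the comparisons where the mitochondrially encoded members rose. Of 27 tested genes of mitochondrial transcription and RNA handling, prednisolone lowered 17 and raised 4 in Nalm6, and dexamethasone lowered 17 and raised 2. Over all genes 26.1% and 30.2% were lower, and 28.7% and 30.2% higher. PPRC1, a coactivator of the PGC-1 family, fell by 0.54 ± 0.04 under prednisolone and by 0.68 ± 0.04 under dexamethasone. Of the 9 nuclear regulators of mitochondrial genes tested, 6 were lower and 0 higher under each drug in Nalm6 and 7 were lower and 0 higher in CEM, where 22.8% of all genes were lower. CYCS, TFAM, LRPPRC and PPRC1 were chosen after their values were seen.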

How the data were processed

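The authors deposited raw read counts per gene for each of 33 libraries, in the layout written by STAR; per the submitters' processing notes the tools were Bowtie2 and DESeq2 with hg19, and aligner settings are not given in the sources used here. Column 4 (reverse-stranded) was used, which held 12.3 to 15.3 times the gene total of column 3. Reads without a gene stayed out of library sizes: unmapped 2.84% to 11.2%, outside genes 18.4% to 32.7%, multiply mapped 4.83% to 7.55%, ambiguous 4.70% to 7.45%. Symbols came from the deposited IDs through the supplied annotation, and promoters from RefSeq. MT-ATP6 and MT-ATP8 were kept although their names end in P and a digit. Members and lists were chosen with earlier results of these data known.

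Each comparison was fitted on its own groups with edgeR 4.0.16 in R 4.3.3 (filterByExpr, TMM, quasi-likelihood F test, Benjamini-Hochberg over all genes tested), called at an adjusted p under 0.05. Standard errors came from the F statistic. The script was tested on simulated data. Single genes were named by a rule: every mitochondrially encoded member, SDHA to SDHD, isoform groups, ATP5IF1, TLE1, and per comparison the 3 largest called rises and falls at 10 CPM or more without overlap (not asked for differences of responses). A gene picked by this rule is not reported here. Alternatives were RLE scaling, DESeq2 1.42.0, no filter, 10 counts in every library, unstranded counts, scaling without mitochondrial genes, the replicate number as a block, the other untreated Nalm6 set (for 3 comparisons added after seeing the data) and leaving out each library. Counting limits cover counting error only.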

Additional observations from a re-analysis of the deposited data

Results flagged for a closer look

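The test of the difference itself called 28 nuclear members between the prednisolone responses of CEM (10 µM) and Nalm6 (5 µM). The 3 largest differences each way, CEM minus Nalm6 on the log2 scale, were NDUFB10 by 0.36, UQCRH by 0.36, NDUFA12 by 0.35, SDHA by −0.38, NDUFA5 by −0.21 and UQCRC2 by −0.17 (edgeR). With the alternative untreated Nalm6 group, NDUFA5 was 0.012 and UQCRC2 0.085, and the other 4 kept their direction and call. UQCRC2 fell in both lines and further in CEM. NDUFA5, an accessory subunit of complex I, was at 72.5, 70.3 and 68.4 CPM in untreated Nalm6 and 75.7, 69.9 and 74.5 CPM under prednisolone, and went from 82.5, 77.6 and 83.2 CPM to 70.5, 73.7 and 73.3 CPM in CEM. NDUFB10, also of complex I, went from 63.7, 64.5 and 64.2 CPM to 51.7, 47.4 and 51.7 CPM in Nalm6 and was at 58.7, 58.6 and 60.7 CPM and then 59.2, 58.7 and 60.2 CPM in CEM. The doses differ, and the part of the dose in these differences was not tested.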

How the results depend on the processing

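Of 204 calls of named genes, 69 were lost in at least 1 alternative and 24 of these changed direction. RLE scaling, 10 counts in every library, unstranded counts and scaling without mitochondrial genes kept every count of called members within 1.5 times. Counts that moved further are as follows. With DESeq2, mitochondrially encoded calls were 7 for dexamethasone in Nalm6, 1 for the knockout-minus-parental response, 1 for prednisolone in CEM and 3 for CEM against Nalm6, and nuclear calls for CHIR in Nalm6 were 11. With no filter, nuclear calls for CHIR in Nalm6 were 13, and mitochondrially encoded calls were 5 for CHIR in Nalm6, 8 for the untreated knockout, 8 for prednisolone in the knockout, 9 for its difference from parental, 6 for CHIR in CEM, 6 for prednisolone in CEM, 4 for CEM minus Nalm6 and 11 for CEM against Nalm6. With the other untreated set the last was 10. Using that set for 3 more comparisons was chosen after seeing the data: nuclear calls were then 26 for the untreated knockout, 46 for its response difference and 66 for CEM minus Nalm6, and mitochondrially encoded calls were 4 and 7 for the differences.

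Same-numbered libraries correlated at −0.139 to 0.102 in their deviations from the group means, so the numbers were not taken to pair libraries. With the replicate block, nuclear calls were 1 for CHIR in Nalm6 and 11 for the untreated knockout, and mitochondrially encoded calls were 5 for prednisolone in CEM.

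Leaving out 1 library at a time gave these ranges of nuclear and then mitochondrially encoded calls: 1 to 15 and 0 to 3 for CHIR in Nalm6, 55 to 62 and 9 to 10 for prednisolone in Nalm6, 62 to 66 and 10 to 12 for dexamethasone, 9 to 24 and 1 to 11 for the untreated knockout, 28 to 36 and 1 to 11 for prednisolone in the knockout, 0 to 5 and 0 to 11 for its difference from parental. The ranges were 31 to 46 and 12 to 13 for the knockout under dexamethasone, 12 to 18 and 0 to 0 for CHIR in CEM, 31 to 46 and 1 to 13 for prednisolone in CEM, 20 to 44 and 0 to 4 for CEM minus Nalm6, 37 to 54 and 3 to 8 for CEM against Nalm6, and 55 to 64 and 8 to 13 between the untreated Nalm6 sets.

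Changes of direction, as log2 fold changes, came from the other untreated set or from leaving out 1 library. Against the other set, prednisolone in Nalm6 gave MT-ND2 −0.19, MT-CO1 −0.43, MT-CO2 −0.44, MT-ATP6 −0.65, MT-CO3 −0.49, MT-ND4 −0.35, MT-CYB −1.10 and UQCRB −0.17. Dexamethasone gave MT-ND6 −0.88, COX4I1 0.21, COX6B1 0.32, COX7A2 0.072, ATP5MC2 0.16 and ATP5IF1 0.038. CEM against Nalm6 gave MT-CO1 0.45, MT-ND4 0.56, MT-CYB 0.82, SDHB 0.088, SDHD 0.16, COX4I1 0.089, COX6B1 0.42, COX7A2 0.33, COX7A2L 0.20 and NDUFA4 0.41. The untreated knockout gave MT-CO3 −0.39, MT-ND6 0.22, MT-CYB −0.93, SDHB −0.23, COX4I1 −0.22, COX6B1 −0.42, COX7A2 −0.025, COX7B −0.24, ATP5MC2 −0.086, ATP5IF1 −0.19 and ATP5F1D −0.0017. Its response difference gave MT-CO3 0.67, MT-ND6 −0.65, MT-CYB 0.86 and COX7B 0.37. CEM minus Nalm6 gave MT-CO1 0.57, MT-CO2 0.63, MT-ATP6 0.72, MT-CYB 1.20, COX7A2 0.35, NDUFA5 0.012 and UQCRC2 0.085.

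With 1 library left out, MT-ND3 ranged from −0.38 to 0.13 for CHIR in Nalm6, MT-ND1 from −0.31 to 0.16 in the untreated knockout, MT-CO1 from −0.16 to 0.12 for prednisolone in the knockout and MT-ND6 from −0.16 to 0.28 in the knockout under dexamethasone. For prednisolone in CEM, MT-ND1 ranged from −0.22 to 0.25, MT-ND2 from −0.20 to 0.33 and MT-ND4 from −0.19 to 0.32. For CEM minus Nalm6, MT-ND1 ranged from −0.26 to 0.22, MT-ATP6 from −0.37 to 0.18 and MT-ND3 from −0.13 to 0.17. The cause of these changes was not tested. The 6 members with at most 3 counts in any library were not tested.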

Other observations

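The share of mitochondrially encoded reads on the strand opposite to the gene fell into sets: group means were 6.53% in untreated Nalm6, 6.91% under CHIR-99021 and 6.05% under prednisolone, 3.78% and 3.70% in the line labelled TLE1 KO untreated and under prednisolone, and 2.16% to 3.15% in the dexamethasone and CEM groups. Mitochondrial ribosomal RNA ranged from 120 to 3091 CPM over the 33 libraries.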
